A study of Dorcoceras hygrometricum with 3 samples.

Results

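Of the 5575 genes listed in this study, 7 described here carry KEGG descriptions for the synthesis, removal, reception or transcriptional response of abscisic acid (ABA), and the tables give the DNA methylation of a region beside or within each of them. They were chosen by gene identifier and KEGG text: a 9-cis-epoxycarotenoid dioxygenase, a xanthoxin dehydrogenase, an abscisic acid 8'-hydroxylase, a PYR/PYL receptor, a protein phosphatase 2C and 2 ABA responsive element binding factors. Of the 7, 6 (of 3177 listed genes) appear in the comparison of hydrated leaves with leaves at 70% relative water content (RWC), 4 (of 3660) appear in the comparison with leaves at 10% RWC, and 3 appear in both.

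The samples were leaves of potted Boea hygrometrica (named Dorcoceras hygrometricum in the labels), a resurrection plant whose leaves survive drying, taken hydrated (HD), moderately dehydrated to 70% RWC, or desiccated to 10% RWC. The labels state no genotype, plant age or duration of drying. There was 1 bisulfite sequencing library per condition, 3 in all, so no difference below has a replicate check and none was tested, and a difference between conditions cannot be told apart from one between individual plants or between preparations. The methylation level of a region is the deposited mean for its cytosines, a fraction from 0 (none methylated) to 1 (all methylated) printed with 2 decimals, and differences below are the dehydrated level minus the hydrated level. Read depth, numbers of cytosines and sequence context are not in the tables, so the depth behind a level is unknown and no interval can be given. The tables measure methylation only, so the leaf label could not be checked against marker transcripts.

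ABA is the plant hormone that accumulates during water deficit, closes stomata and activates genes of desiccation tolerance. In the plastid, 9-cis-epoxycarotenoid dioxygenase cleaves epoxycarotenoids to xanthoxin. Xanthoxin dehydrogenase converts xanthoxin to abscisic aldehyde, and ABA 8'-hydroxylase begins the breakdown of the hormone. ABA bound to PYR/PYL receptors blocks protein phosphatases 2C, which otherwise hold SnRK2 kinases (SRK2 in KEGG) inactive, and the freed kinases phosphorylate the binding factors that recognise ABA responsive elements in promoters. Cytosine methylation near or within plant genes can accompany differences in transcription, but no transcript level was measured in the tables.

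Both tables hold only regions that had already been selected for a difference, and each gene is listed once per table. The ratio of the higher to the lower level was at least 1.92 in the 70% RWC table and at least 1.86 in the 10% RWC table, with medians of 2.48 and 2.5. The higher level itself was at least 0.1 in both. A gene that is absent from a table therefore has no value there, which is not a measurement of no difference. All positions are scaffold coordinates of the deposited tables. The labels and headers name no genome build. Strand was not read from a column, and where it is given below it follows from whether the authors called a flank upstream or downstream.

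Both synthesis genes had strongly methylated upstream regions in the hydrated leaf and much lower levels in the dehydrated one. Upstream of the xanthoxin dehydrogenase gene Bhs1073_015V1.1 the level was 0.83 in the hydrated library and 0.39 at 70% RWC, a difference of -0.44. This region of 483 bp (scaffold 1073, 211466 to 211948) ended 684 bp before a gene of 2909 bp that starts at 212633, on the implied plus strand. Upstream of the 9-cis-epoxycarotenoid dioxygenase gene Bhs1494_002V1.1, the gene of the step that limits ABA synthesis, the level was 0.84 in the hydrated library and 0.41 at 10% RWC, a difference of -0.43. That region of 351 bp (scaffold 1494, 102495 to 102845) ended 794 bp before the gene, which runs from 103640 to 105430.

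The synthesis genes thus had near-equal levels at near-equal distances, but in different comparisons. Neither was listed in the other table, and no listed region of the other table lay within 2000 bp of either gene. Hydrated levels this high were uncommon among listed regions: 1.23% of genes in the 70% RWC table had a hydrated level of 0.83 or more, and 1.48% of genes in the 10% RWC table had one of 0.84 or more. As a difference, each exceeded that of 94.4% of the genes in its own table. This rank follows in large part from the selection. With ratios of at least 1.92 and 1.86, hydrated levels this high could only be listed as lower, and only with a large drop. As a ratio each was close to the lower limit of listing: hydrated over dehydrated was 2.13 for the xanthoxin dehydrogenase gene, above 23.6% of listed genes, and 2.05 for the dioxygenase gene, above 10.4%.

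**Figure D1:**
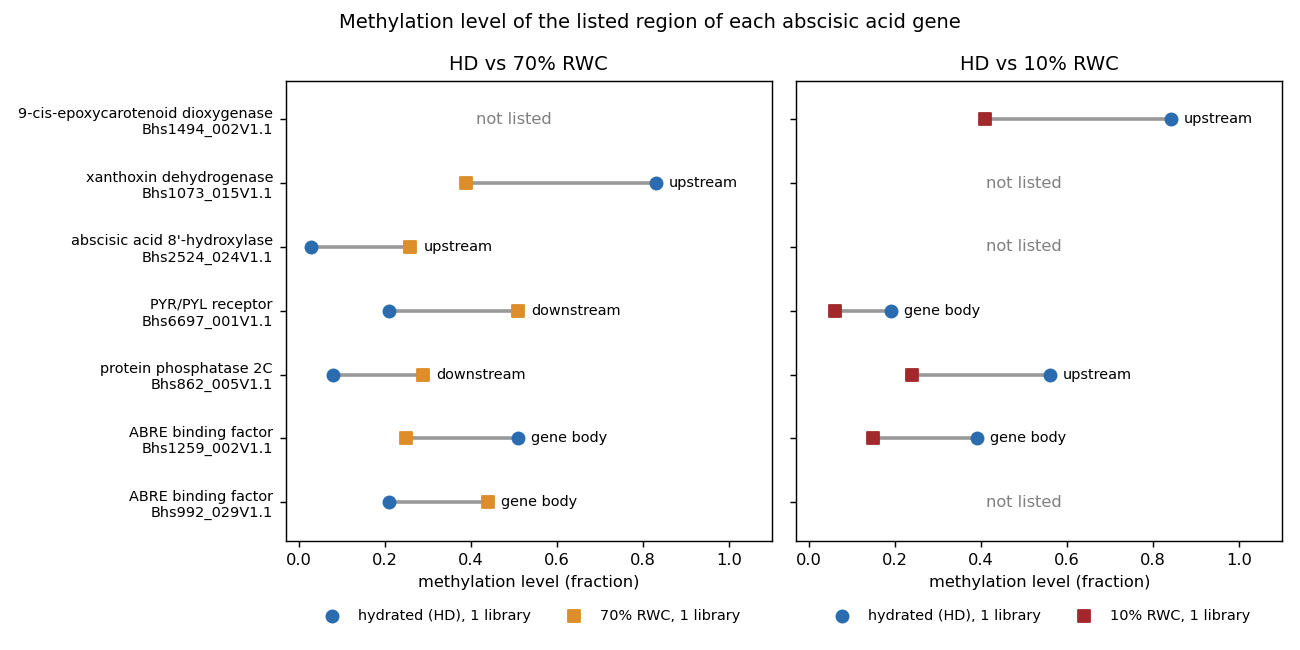
Methylation level (x axis, fraction) of the listed region of each gene (y axis), with circles for the hydrated library and squares for the dehydrated one, 1 library each and no error bar. At 70% RWC 4 squares lie to the right of their circles and 2 to the left, and at 10% RWC all 4 lie to the left.

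The gene for the removal of ABA was listed with a higher level at 70% RWC. Upstream of Bhs2524_024V1.1, an ABA 8'-hydroxylase, the level was 0.03 in the hydrated library and 0.26 at 70% RWC, a difference of 0.23. This was the lowest hydrated level among the 10 listings of the 7 genes, and the ratio of 8.67 was the highest, above that of 87.9% of the genes in the table. The difference itself was ordinary, exceeding that of 53.4% of listed genes. The region of 212 bp (scaffold 2524, 190879 to 191090) lay 1312 bp from the gene (187171 to 189566, implied minus strand) and was listed for no other gene. Of the 15 other genes listed on this scaffold at 70% RWC, 8 were higher and 7 lower, where 70.6% of all listed genes were higher. The nearest of their regions, 9083 bp away in the body of Bhs2524_023V1.1, was lower (0.73 hydrated, 0.33 at 70% RWC). With levels printed to 2 decimals, a ratio over 0.03 is imprecise. The higher level was at least 0.1 in every listing, so a region at 0.03 could only be listed as higher. A region at 0.83, as upstream of the xanthoxin dehydrogenase gene, could only be listed as lower. Given these hydrated levels, the observed limits of listing left only 1 direction for each gene. Their contrast in direction thus adds nothing beyond the contrast in hydrated level, which was not tested.

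The receptor gene had regions of opposite direction in its 2 listings, at separate places. Downstream of Bhs6697_001V1.1, a PYR/PYL receptor gene of 2194 bp on the implied minus strand (scaffold 6697, 5980 to 8173), the level was 0.21 in the hydrated library and 0.51 at 70% RWC. That region of 497 bp (4704 to 5200) lay 779 bp beyond the gene. Within the gene, in 363 bp at 7234 to 7596, the level was 0.19 in the hydrated library and 0.06 at 10% RWC. This stretch runs from base 578 to base 940 of the gene, counted from its implied 5′ end. The hydrated levels of the regions were close, while the dehydrated ones lay above and below them by 0.30 and -0.13. The regions are 2033 bp apart, so neither table gives a second dehydrated value for either. No other gene of this scaffold was listed.

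The phosphatase gene also had opposite directions at separate places, a higher level downstream at 70% RWC and a lower level upstream at 10% RWC. Downstream of Bhs862_005V1.1, a protein phosphatase 2C (scaffold 862, 19827 to 21270, implied plus strand), the level was 0.08 in the hydrated library and 0.29 at 70% RWC. Upstream, the level was 0.56 in the hydrated library and 0.24 at 10% RWC, a difference of -0.32 that exceeded that of 82.1% of listed genes. By the selection, a hydrated level of 0.08 could only be listed as higher. One of 0.56 could only be listed as lower and with a sizeable drop, which bears on the rank of this difference. The upstream region of 237 bp (17752 to 17988) lay 1838 bp from the gene, farther than 99.2% of the flank regions of its table. It was also listed as downstream of Bhs862_004V1.1, a gene without a description, at 1394 bp.

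The downstream region of the phosphatase gene was met again in the desiccated leaf, under another gene. Its 556 bp (22197 to 22752) reach into Bhs862_006V1.1, described as an FtsH protease, whose lower end is at 22354 and was listed for the same stretch as a gene body region. In the 10% RWC table, 411 bp inside this stretch (22288 to 22698) were listed for the protease gene only, with 0.07 in the hydrated library and 0.24 at 10% RWC. That piece begins 1017 bp beyond the phosphatase gene, closer than the upstream region under which the gene was listed. The DNA downstream of the phosphatase gene thus had a higher level in both dehydrated libraries, by 0.21 and 0.17, and the opposite signs of its listings belong to regions 4208 bp apart. Both differences use the same hydrated library, and at hydrated levels of 0.08 and 0.07 neither region could be listed as lower. Among the other 24 genes listed on this scaffold in each table, 19 had higher levels at 70% RWC and 15 at 10% RWC (14 and 12 of 19 distinct regions), where 70.6% and 55.8% of all listed genes did.

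**Figure D2:**
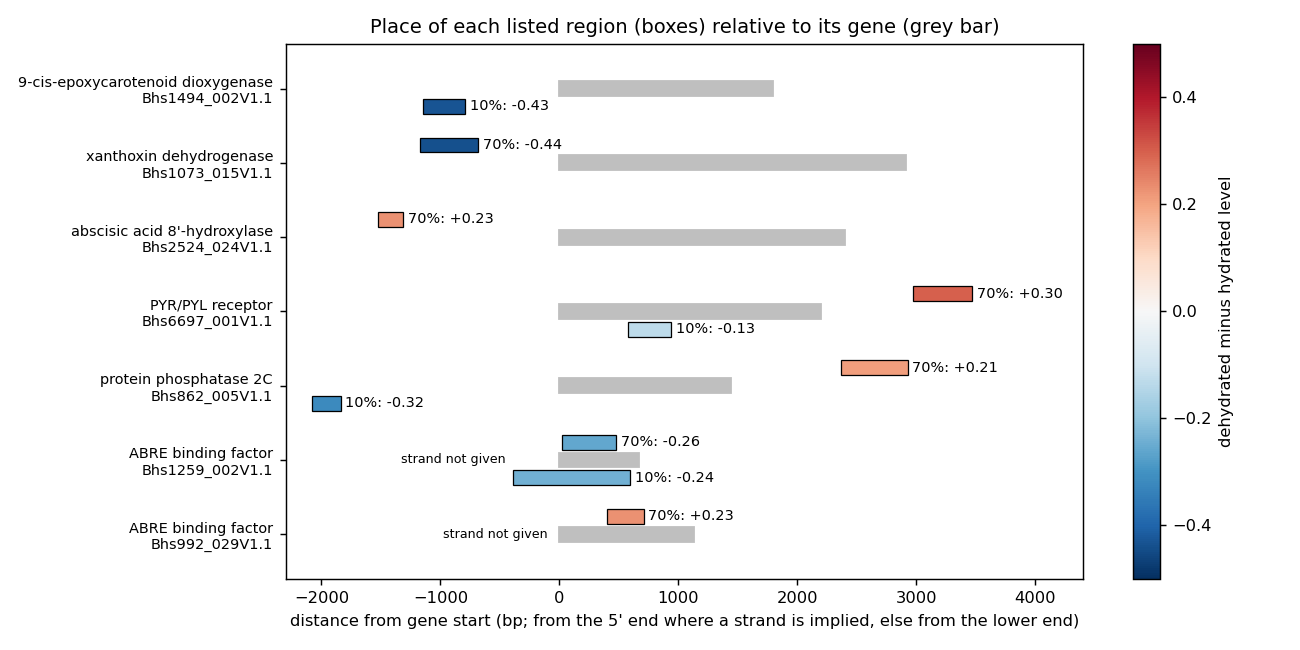
Listed regions (boxes, coloured by the dehydrated minus hydrated level and labelled with the RWC and that difference) along each gene (grey bar), with distance from the gene start in bp on the x axis. The regions of the receptor and phosphatase genes lie apart in the 2 comparisons, and those of Bhs1259_002V1.1 overlap.

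The 2 genes for ABA responsive element binding factors, transcription factors at the end of the pathway, differed in opposite directions within their gene bodies at 70% RWC. In Bhs1259_002V1.1 (scaffold 1259, 40223 to 40891) the level was 0.51 in the hydrated library and 0.25 at 70% RWC, over 450 bp at 40248 to 40697. In Bhs992_029V1.1 (scaffold 992, 419393 to 420520) it was 0.21 in the hydrated library and 0.44 at 70% RWC, over 308 bp at 419792 to 420099. These regions covered 67.3% and 27.3% of their genes. The second gene was not listed at 10% RWC.

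Bhs1259_002V1.1 was the member listed in both tables for overlapping DNA, and its level was lower in both dehydrated libraries. At 10% RWC the listed region was 983 bp long (39836 to 40818), longer than the gene of 669 bp, and held the whole 450 bp region of the other table. Over it the level was 0.39 in the hydrated library and 0.15 at 10% RWC. It covered 89.1% of the gene and a further 387 bp before the gene's lower end, a side that cannot be named upstream or downstream without strand. The differences were -0.26 at 70% RWC and -0.24 at 10% RWC. The hydrated levels of 0.51 and 0.39 come from the same library over different stretches, and both differences rest on it. Of the other genes listed on this scaffold, 7 of 8 were higher at 70% RWC (5 of 6 distinct regions) and 8 of 16 at 10% RWC (6 of 12 distinct regions), where 70.6% and 55.8% of all listed genes were.

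Counted together, the listed members had both directions at 70% RWC and lower levels at 10% RWC. At 70% RWC, 4 of 6 had a higher level, where 70.6% of all listed genes did, and 2 had a lower level, where 29.4% did. At 10% RWC, 4 of 4 had a lower level, where 44.2% of all listed genes did and 55.8% had a higher one. That majority turns with size: among listed genes that differed by at least 0.2, as 3 of these 4 members did, 45.5% were higher. With a ratio of at least 1.86 needed, members with hydrated levels of 0.84 and 0.56 could only be listed as lower at 10% RWC. At 70% RWC a hydrated level of 0.83 could only be listed as lower, and those of 0.08 and 0.03 only as higher. A count of 4 genes, chosen with earlier results known, carries no test. The median difference of the members was 0.22 at 70% RWC and -0.28 at 10% RWC, against 0.17 and 0.10 over all listed genes. Differences of at least 0.2 in either direction were listed for 6 of 6 members at 70% RWC (57.6% of all listed genes) and for 3 of 4 at 10% RWC (52.4%). The receptor gene was the exception.

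By place, the lower levels at 10% RWC were divided between upstream flanks and gene bodies. Of the 4, 2 lay upstream, where 49.9% of all upstream listings in that table were lower, and 2 in gene bodies, where 38.5% were. At 70% RWC the 2 upstream members, the xanthoxin dehydrogenase and 8'-hydroxylase genes, had opposite directions, as did the 2 gene body members, and both downstream members were higher. Over all listed genes of that table, 71.3% of upstream, 71.0% of gene body and 69.3% of downstream regions were higher. Ordered by hydrated level, the listings ran from 0.84 and 0.83 upstream of the synthesis genes through 0.56 upstream of the phosphatase gene, 0.51 and 0.39 in Bhs1259_002V1.1, and 0.21, 0.21 and 0.19 at Bhs992_029V1.1 and the receptor gene, to 0.08 downstream of the phosphatase gene and 0.03 upstream of the 8'-hydroxylase gene. Without replicates, it cannot be said which neighbours in this order differ. All listings with a hydrated level of 0.39 or more were lower after dehydration, and those of 0.21 or less were higher except the receptor gene body at 0.19. A region must differ about 2-fold to be listed, so one with a high hydrated level could hardly be listed as higher. Nor could one below 0.1, as the 0.08 and 0.03 here, be listed as lower, because the higher level was always at least 0.1.

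**Figure D3:**
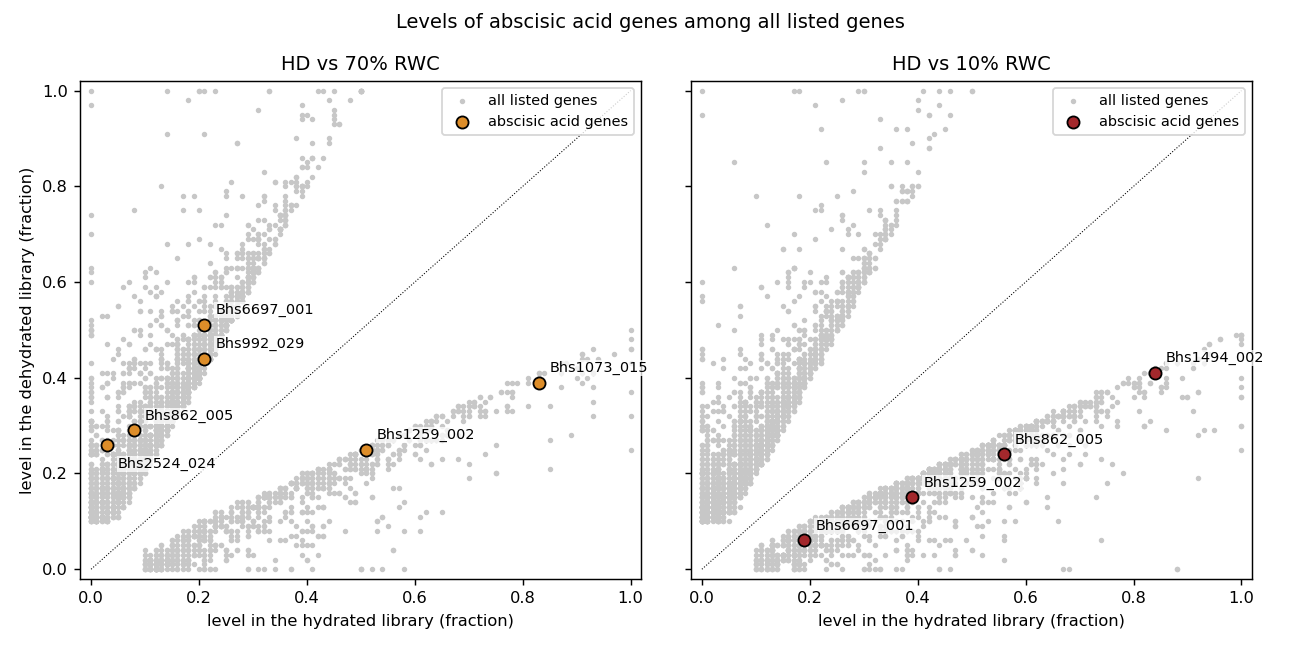
Hydrated level (x axis) against dehydrated level (y axis), both as fractions, for all listed genes (grey points) and the abscisic acid genes (large points), with the dotted line marking equal levels. The empty wedge around the line reflects the selection of listed regions, and the synthesis genes lie at its lower edge with hydrated levels of 0.83 and 0.84.

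Other listed genes share the members' descriptions, and are counted here beside all listed genes. Taking genes whose best KEGG match is one of the 6 descriptions, 5 of 7 were higher at 70% RWC, a share near the 70.6% of all listed genes. At 10% RWC 10 of 12 were lower, where 44.2% of all listed genes were. Without the members these counts were 1 of 1 and 6 of 8. The KEGG text also carries a match score, which ran from 211 to 875 for the members and from 50.4 to 558 for the other genes at 10% RWC.

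In synthesis, Bhs40_119V1.1, a second xanthoxin dehydrogenase by description, had a higher level downstream at 70% RWC (0.23 hydrated, 0.49 dehydrated), opposite to the member. At 10% RWC Bhs63_041V1.1, another with this description, had a lower level in its body (0.35 and 0.13), and so did Bhs1600_013V1.1, a second dioxygenase by description (0.30 and 0.15). In removal, Bhs4_108V1.1, a second 8'-hydroxylase, had 0.13 in the hydrated library and 0.05 at 10% RWC downstream. The 8'-hydroxylase listings therefore had opposite signs in the 2 comparisons, at different genes. The regions of Bhs40_119V1.1, Bhs63_041V1.1 and Bhs4_108V1.1 were each also listed for another gene.

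In reception, 3 receptor genes were listed at 10% RWC. Besides the member, Bhs109_042V1.1 had a lower level downstream (0.34 and 0.07) and Bhs3240_002V1.1, whose match score of 50.4 was the lowest of the 3, a higher one in its body (0.05 and 0.14). All 3 genes best matched as protein phosphatase 2C were lower, where 44.2% of all listed genes were. The other 2 were Bhs316_028V1.1 (0.27 and 0.12) and Bhs4954_007V1.1 (0.31 and 0.14), both in the body. Their match scores of 95.1 and 72.0 were well below the 300 of the member. The kinases of the pathway were represented by Bhs574_028V1.1, described as SRK2, with 0.45 in the hydrated library and 0.22 at 10% RWC upstream. A further binding factor by description, Bhs168_014V1.1, was higher in its body (0.12 and 0.28), against the lower level of Bhs1259_002V1.1. The regions of Bhs109_042V1.1, Bhs4954_007V1.1 and Bhs168_014V1.1 were each also listed for another gene.

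Protein phosphatase 2C also appeared as a lower-ranked match for genes described first as another phosphatase or as protein kinase A, and their shares were near those of all listed genes, of which 70.6% were higher at 70% RWC and 55.8% at 10% RWC. At 70% RWC 6 of 9 were higher (Bhs10817_005V1.1, Bhs126_066V1.1, Bhs17222_001V1.1, Bhs2558_002V1.1, Bhs2869_002V1.1 and Bhs3156_002V1.1) and 3 lower (Bhs18_046V1.1, Bhs2_056V1.1 and Bhs291_004V1.1). At 10% RWC 3 of 6 were higher (Bhs10817_005V1.1, Bhs2869_002V1.1 and Bhs68_061V1.1) and 3 lower (Bhs18_046V1.1, Bhs32_057V1.1 and Bhs710_040V1.1). Upstream of Bhs18_046V1.1 the level was 0.91 in the hydrated library and 0.39 at 70% RWC, and 0.85 and 0.37 at 10% RWC over an overlapping stretch. Lower-ranked matches to synthesis enzymes were Bhs2279_001V1.1 (xanthoxin dehydrogenase, 0.14 and 0.29 at 70% RWC), Bhs1022_019V1.1 (xanthoxin dehydrogenase, 0.15 and 0.55 at 10% RWC) and Bhs801_004V1.1 (9-cis-epoxycarotenoid dioxygenase, 0.49 and 0.21 at 10% RWC).

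Genes drawn by the keywords for carotenoid precursors of ABA went both ways, 7 higher and 4 lower at 70% RWC and 8 higher and 8 lower at 10% RWC. Over all listed genes 70.6% and 55.8% were higher, so these counts are near the background. At 70% RWC the level upstream of Bhs464_019V1.1, a zeaxanthin epoxidase, which makes violaxanthin, was 0.26 in the hydrated library and 0.06 at 70% RWC. In the body of Bhs915_013V1.1, a violaxanthin de-epoxidase, which works in the reverse direction, it was 0.32 and 0.67, and downstream of that gene it was 0.11 and 0.26 at 10% RWC. At 10% RWC higher levels were listed in the bodies of a carotenoid isomerase gene (Bhs334_060V1.1, 0.10 and 0.25), a lycopene epsilon cyclase gene (Bhs373_003V1.1, 0.05 and 0.16) and a carotenoid epsilon-ring hydroxylase gene (Bhs129_032V1.1, 0.02 and 0.19), and lower ones upstream of the lycopene beta cyclase gene Bhs2372_011V1.1 (0.10 and 0) and in the bodies of Bhs1834_005V1.1, a lower-ranked match to that enzyme (0.34 and 0.11), and Bhs103_032V1.1, a carotenoid cleavage dioxygenase (0.19 and 0.09). The beta cyclase leads toward the precursors of ABA and the epsilon cyclase and hydroxylase toward lutein. The carotenoid cleavage dioxygenase was counted here by its keyword, though by its description it cleaves carotenoids. The regions of Bhs334_060V1.1 and Bhs2372_011V1.1 were each also listed for another gene.

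The remaining precursor genes had weaker matches. At 70% RWC 7 and at 10% RWC 6 of them were described as zeta-carotene desaturase with match scores of at most 249. They were Bhs21_009V1.1, Bhs211_017V1.1, Bhs3508_005V1.1, Bhs4107_002V1.1, Bhs45_135V1.1, Bhs8856_002V1.1 and Bhs887_023V1.1 at 70% RWC, 5 of them higher, near the share of 70.6% over all listed genes. At 10% RWC they were Bhs11977_002V1.1, Bhs1867_003V1.1, Bhs211_017V1.1, Bhs229_028V1.1, Bhs4107_002V1.1 and Bhs7200_002V1.1, 2 of them higher, where 55.8% of all listed genes were. The others were Bhs263_018V1.1, a carotenoid isomerase (0.14 and 0.36 at 70% RWC), and the zeaxanthin epoxidases by description Bhs4_026V1.1 (0.03 and 0.12 at 10% RWC) and Bhs7_038V1.1 (0.11 and 0.02 at 70% RWC, 0.08 and 0.18 at 10% RWC, at regions 165 bp apart).

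**Figure D4:**
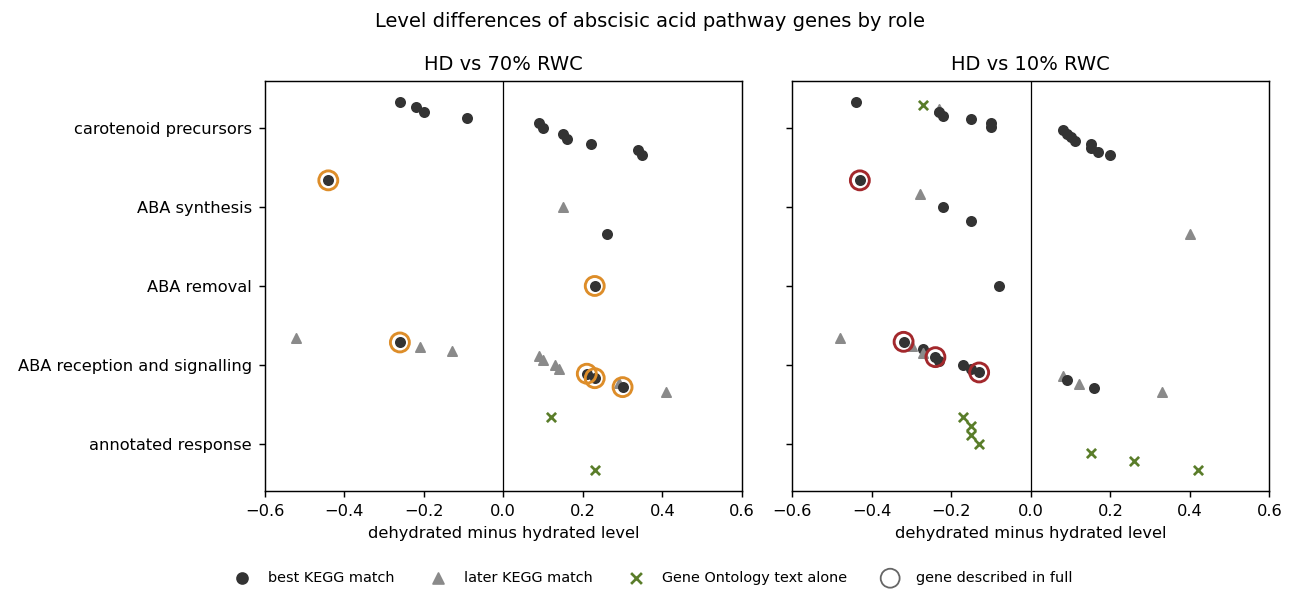
Dehydrated minus hydrated level (x axis) of every listed gene matched by the ABA pathway keywords, by role (y axis), 1 point per gene, with rings around the 7 genes described in full. Among synthesis, removal and signalling genes at 10% RWC, most best KEGG matches lie left of 0, while carotenoid precursor genes lie on both sides in both comparisons. Of all listed genes at 10% RWC, 44.2% were lower. The 4 ringed genes there, chosen with earlier results known, are among the matches left of 0.

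Genes that entered by Gene Ontology text alone numbered 2 at 70% RWC, both higher, and 8 at 10% RWC, 3 higher and 5 lower. The 2 at 70% RWC were Bhs915_012V1.1 (0.11 and 0.34) and Bhs5_109V1.1 (0 and 0.12), both downstream. At 10% RWC Bhs915_012V1.1 shared its listed region with the violaxanthin de-epoxidase gene Bhs915_013V1.1. The largest differences of this kind at 10% RWC were in the body of Bhs189_023V1.1, annotated to ABA signalling and water deprivation (0.37 and 0.79), downstream of Bhs386_010V1.1, annotated to carotenoid synthesis (0.52 and 0.25), and upstream of Bhs1832_009V1.1, annotated to the response to ABA (0.16 and 0.42). Over all keyword lists, 21 of 30 genes were higher at 70% RWC (70.6% of all listed genes) and 27 of 44 were lower at 10% RWC (44.2% of all listed genes). No listed gene was described as a late embryogenesis abundant protein, a dehydrin, an abscisic aldehyde oxidase or a molybdenum cofactor sulfurase.

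Of the 12 keyword genes listed in both tables, 8 were listed for overlapping regions, and 7 of these had the same direction in both, Bhs1259_002V1.1 among them. The exception was Bhs5_109V1.1, where the hydrated level was 0 in one table and 0.27 in the other. Of the 4 listed for separate regions, 3 had opposite directions, the receptor and phosphatase genes among them. Both comparisons share the hydrated library. The shares of same and opposite direction were not counted over all genes listed in both, so these counts cannot be read as a trait of ABA genes.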

How the data were processed

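Leaf DNA of 3 conditions was sonicated, ligated to methylated adaptors and treated with bisulfite, per the labels' protocols, with 1 library each. No label or header names the aligner, region caller, filters or genome build. The deposited methylation level is a fraction from 0 to 1, per the file headers an average over the region in the hydrated and in the dehydrated library. Coverage is not in the tables, so no coverage minimum could be applied and no precision is known.

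Lines with a gene identifier were used, 3177 and 3660 genes. Because some gene ends had been rounded, they were rebuilt from gene start and gene length. Distances count the bases between region and gene, and overlaps are of at least 1 bp. Ranked KEGG matches were split at their separators; the entry read as a match score is recognised by its layout and explained by no header. Pathway genes were drawn by keywords, first from KEGG descriptions and then from Gene Ontology text. Every member and every gene matched by a KEGG description is named, with the 3 largest differences per comparison among genes matched by Gene Ontology text alone. The members and lists were chosen with earlier results of these data known. No test was run, because each condition has 1 library and regions were selected on their difference. Directions are set beside those of all listed genes. The sign of level differences was checked on simulated levels, and the splitting of KEGG matches on a made-up entry. The functions that gave the counts were not tested in this way. Alternatives were log2 ratios with 0.01 or 0.05 added, minimum differences of 0.2 and 0.3, regions listed for 1 gene, distinct regions, gene parts, and KEGG text alone; best matches alone and leaving out members were added after seeing the data. Python 3.11.15, pandas 2.3.3, numpy 2.4.6 and matplotlib 3.10.9 were used.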

Additional observations from a re-analysis of the deposited data

Results flagged for a closer look

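Of the 3 members listed in both comparisons, 2 had opposite directions, and the difference was not tested. The share of opposite directions over all genes listed in both was not counted, so this is no trait of ABA genes. For the receptor gene Bhs6697_001V1.1 the difference was 0.30 at 70% RWC, downstream, and -0.13 at 10% RWC, in the gene body. For the phosphatase gene Bhs862_005V1.1 it was 0.21 at 70% RWC, downstream, and -0.32 at 10% RWC, upstream. In both cases the listed regions do not overlap, and each rests on 1 dehydrated library and the shared hydrated one. For the phosphatase gene, hydrated levels of 0.08 and 0.56 allowed only these directions to be listed. For the phosphatase gene, most of the downstream region was also listed at 10% RWC, for the neighbouring gene, with a difference of 0.17.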

How the results depend on the processing

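All 10 member differences kept their sign as log2 ratios with 0.01 or 0.05 added. With 0.01 added the log2 ratio was 2.75 for the 8'-hydroxylase gene and -1.07 and -1.02 for the synthesis genes, so the order of sizes depends on the scale. At differences of at least 0.3, 1 member was higher and 1 lower at 70% RWC, and 2 were lower at 10% RWC. The shares of all listed genes at 0.3 were not counted, so nothing is read from these counts. At 0.2 or more, 11 pathway keyword genes were higher and 7 lower at 70% RWC, and 5 were higher and 15 lower at 10% RWC. Of all listed genes at this cutoff, 71.7% were higher at 70% RWC and 45.5% at 10% RWC. With best KEGG matches alone, an alternative added after seeing the data, 12 were higher and 6 lower at 70% RWC, and 10 were higher and 17 lower at 10% RWC. The majority among all listed genes at 10% RWC reversed with size: 55.8% were higher, but 45.5% of those that differed by at least 0.2. No other count of members or keyword genes moved by over 1.5 times under the alternatives tried. No paired analysis was possible because each condition has 1 library and no test was run. Unknown depth and cytosine number limit every level, and those near 0, such as 0.03 upstream of the 8'-hydroxylase gene, most affect ratios.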
